A study of Mus musculus with 15 samples.

Results

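Thalamic and habenular neuron genes were followed in the midbrain of mice given carnosine, a dipeptide. The set was chosen by name and held 10 genes of the 24454 gene rows in the deposited count table: Tcf7l2, Lef1, Rora, Slc17a6, Tac2, Gpr151, Prkcd, Calb2, Synpo2 and Nwd2. Each symbol matched 1 row through its numeric gene ID, and all 10 were among the 15818 genes kept by the filter on low counts. RNA sequencing covered 15 libraries in 5 groups of 3. WT control and WT intranasal were wild-type BDF1 mice, kept as controls or given 2 mg of carnosine through the nose. TG control, TG intranasal and TG drinking water were transgenic mice, kept as controls, given the same 2 mg intranasal dose, or given 10 mM carnosine to drink. The transgene is under the Thy1 promoter, which works in many types of neuron and is not limited to thalamus or habenula. Animals were 2 months old when the 2 months of treatment began, and a mirVana kit was used for total RNA. Nothing in the labels says that the 3 samples of a group are separate animals, so the p-values below measure only the spread between these samples.

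The thalamus relays sensory and motor signals to the cortex through glutamatergic neurons, and the habenula, which lies beside it, sends its output to the midbrain. Tcf7l2 and Lef1 encode transcription factors that bind DNA at TCF/LEF motifs and act with beta-catenin in Wnt signalling, and Tcf7l2 is known as a regulator of thalamic and habenular neuron identity. Rora encodes a nuclear receptor found in thalamic relay neurons, and also in cerebellar Purkinje cells. Prkcd, a protein kinase C, marks many dorsal thalamic neurons, while Tac2, the precursor of neurokinin B, and Gpr151, an orphan receptor, mark parts of the habenula. Several of the 10 genes are also used outside these regions: Slc17a6, the vesicular glutamate transporter, and Calb2, the calcium-binding protein calretinin, both occur in midbrain neurons. In bulk tissue such as this, fewer cells of a type and less RNA per cell cannot be told apart.

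Promoter sequences are shown for 4 members because TCF/LEF factors are themselves in the set and because Prkcd and Synpo2 turned out to have the most alike levels from library to library. RefSeq sequences of build GRCm38.p6 were at hand for 8 of the 10 genes, with 14 start sites, and each window is the 250 bases before the start, printed 5′ to 3′ on the gene's own strand. Capitals mark a match to the TCF/LEF core CTTTGA or its reverse complement TCAAAG.
Prkcd, first of its start sites, chr14:30626209-30626458, minus strand: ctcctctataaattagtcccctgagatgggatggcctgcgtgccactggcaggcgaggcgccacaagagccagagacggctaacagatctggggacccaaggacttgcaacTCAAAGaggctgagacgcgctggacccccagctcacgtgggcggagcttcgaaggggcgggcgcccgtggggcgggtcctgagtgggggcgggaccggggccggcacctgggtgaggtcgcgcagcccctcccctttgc
Synpo2, chr3:123236150-123236399, minus strand: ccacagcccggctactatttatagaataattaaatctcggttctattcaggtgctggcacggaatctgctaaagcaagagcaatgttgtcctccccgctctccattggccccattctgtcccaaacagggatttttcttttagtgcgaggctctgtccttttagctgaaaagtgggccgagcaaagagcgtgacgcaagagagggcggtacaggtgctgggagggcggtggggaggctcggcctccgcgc
Tac2, chr10:127724228-127724477, plus strand: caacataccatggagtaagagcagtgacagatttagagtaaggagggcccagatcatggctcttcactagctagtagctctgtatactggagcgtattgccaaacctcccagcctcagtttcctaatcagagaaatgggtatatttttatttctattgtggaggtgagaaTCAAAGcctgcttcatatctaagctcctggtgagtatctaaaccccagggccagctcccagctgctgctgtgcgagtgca
Nwd2, chr5:63648853-63649102, plus strand: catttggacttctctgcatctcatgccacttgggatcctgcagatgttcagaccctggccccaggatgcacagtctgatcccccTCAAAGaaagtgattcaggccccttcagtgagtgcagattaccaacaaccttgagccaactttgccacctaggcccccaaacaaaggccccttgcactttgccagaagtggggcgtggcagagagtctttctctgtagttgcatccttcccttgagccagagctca
The match began 139 bases before the start in Prkcd, 80 bases in Tac2 and 166 bases in Nwd2, and the Synpo2 window held none. In all, 4 of the 14 windows held the core on either strand; the fourth was the last listed Lef1 start site, with matches 180 and 120 bases before it. Among all 32851 promoter windows of the table, 13.8% held it. The ROR half-site AGGTCA, searched likewise on both strands with its reverse complement TGACCT, was in 0 of the 14 windows and in 14% of all windows. These are letter matches and show no binding.

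Library totals ran from 13202199 to 60542423 counts, with WT intranasal the deepest group at 25676560 to 60542423. Thy1 itself checked the genotype labels, at 443.7 to 694.3 CPM (counts scaled to TMM-adjusted library size) in the 6 WT libraries and 3297 to 5032 CPM in the 9 TG libraries. Dopamine neuron genes of the labelled midbrain were detected but uneven: Th ran from 2.964 to 28.09 CPM and Slc6a3 from 0.4742 to 39.13 CPM. Some libraries stood apart in markers of neighbouring tissue. For growth hormone, Gh, WT control 1 had 718 CPM, TG control 1 had 557.2 CPM and no other library more than 120.5 CPM. The cerebellar granule cell gene Gabra6 was at 12.63 to 18.6 CPM in WT intranasal 2, WT intranasal 3 and TG drinking water 3 and at most 2.461 CPM elsewhere, and the striatal gene Adora2a was at 90.61 CPM in TG control 3. The choroid plexus gene Ttr ran from 49.95 CPM in WT control 1 to 1977 CPM in TG drinking water 1. A further split follows the groups in part: 1 unnamed gene row took over 1% of counts in 8 libraries (all WT, TG control 1 and TG control 2) and 0.122% to 0.3204% in the other 7. Values without some of these libraries are given beside the results they touch most.

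All 16 further thalamic genes that were listed were detected in every library, and of 12 further habenular genes 1, Chrna3, was at 0 in a single library, TG intranasal 3. Per kilobase of the longest annotated transcript, the members' mean levels over the 15 libraries were highest for Calb2, at 61.6 CPM per kb (39.7 to 79.7), followed by Prkcd at 34.2 (6.12 to 62.9). Slc17a6 came next at 19.3 CPM per kb and Tcf7l2 at 15.5, then Tac2 at 8.96 and Rora at 6.84. Lef1 (2.83), Nwd2 (2.35), Synpo2 (1.96) and Gpr151 (1.1 CPM per kb) were the lowest. The ranges over libraries overlapped between most neighbours in this order; those of Prkcd and Slc17a6 did, for example, with Slc17a6 at 12.1 to 27.3 CPM per kb. Gpr151 rested on only 10 to 115 counts per library, so its values carry the largest counting error of the set.

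**Figure D1:**
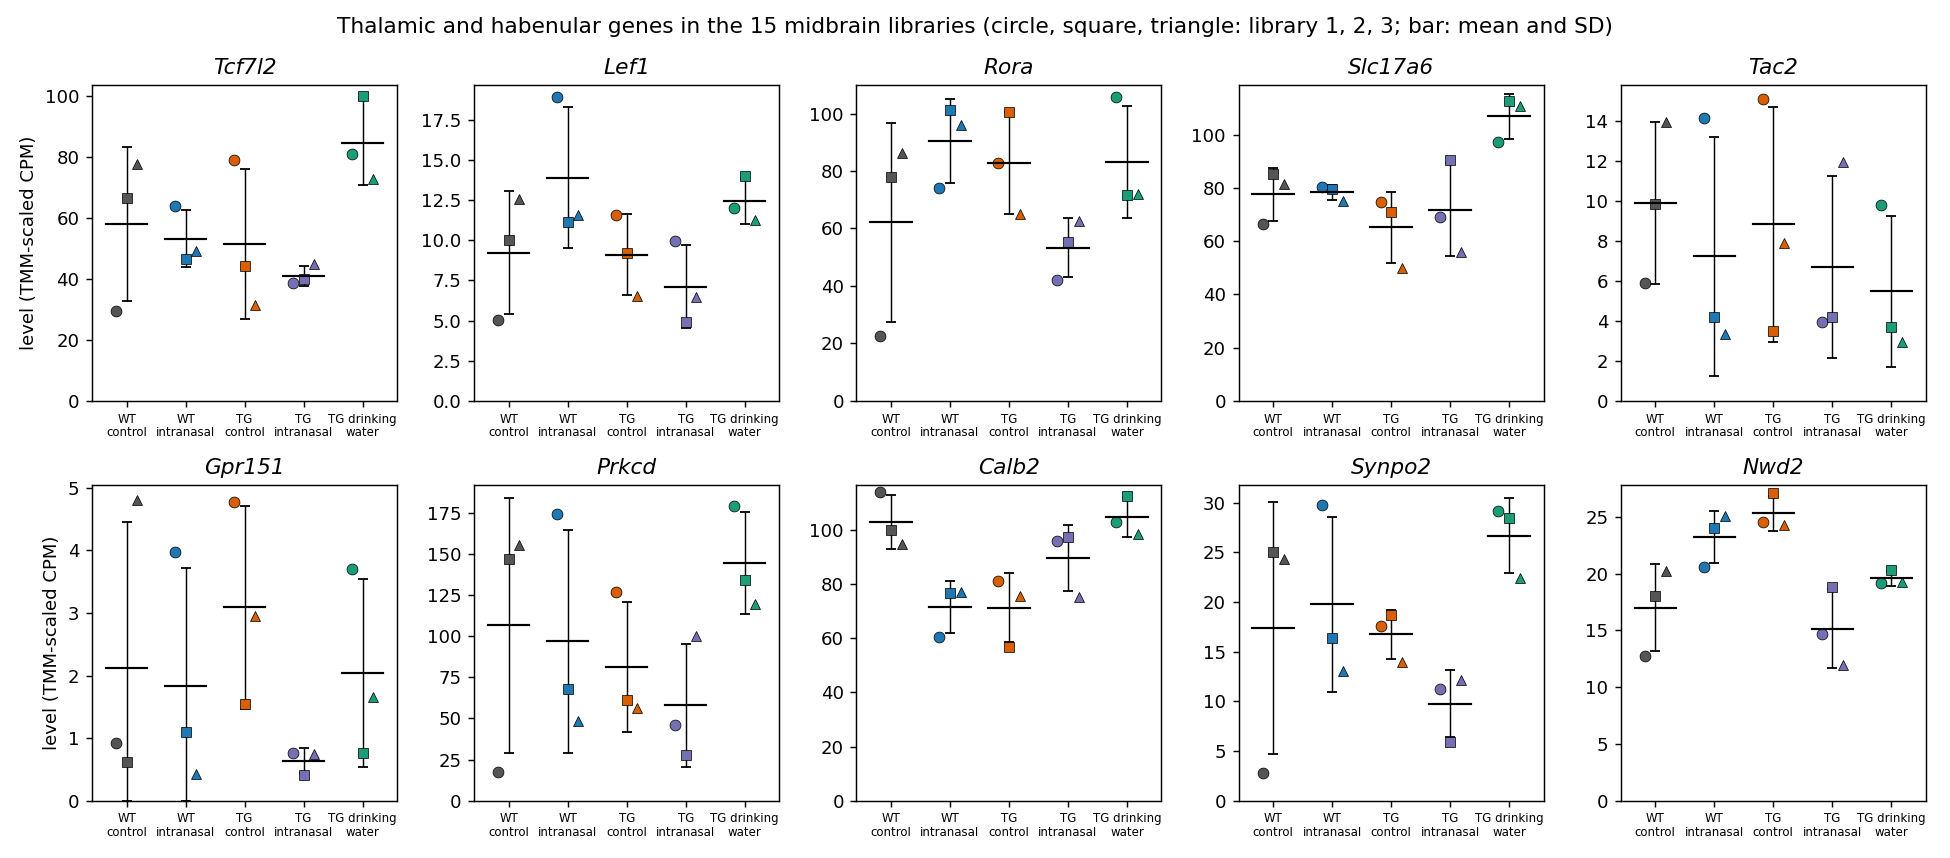
Level of each of the 10 genes in TMM-scaled CPM (vertical axes, 1 panel per gene) in the 5 groups; circles, squares and triangles are libraries 1, 2 and 3 of a group, and bars give the mean and SD (n = 3), cut at 0 for Gpr151. TG drinking water lies high for Slc17a6 at 97.11 to 112.8 CPM, and WT control 1 lies at the bottom for Prkcd, at 17.44 CPM, and for Synpo2, at 2.78 CPM.

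The members differed in how widely they ranged from library to library. Gpr151, Synpo2 and Prkcd differed 11.7-fold, 10.7-fold and 10.3-fold between their highest and lowest library. Tac2 (5.15-fold), Rora (4.7-fold), Lef1 (3.85-fold) and Tcf7l2 (3.39-fold) came between. Nwd2, Slc17a6 and Calb2 ranged least, 2.27-fold, 2.25-fold and 2.0-fold. Much of the wide range lay inside groups. Prkcd was at 17.44, 146.9 and 155.5 CPM in WT control, at 174.6, 67.99 and 48.2 CPM in WT intranasal, at 126.8, 61.13 and 56.33 CPM in TG control, at 46.21, 28.02 and 99.98 CPM in TG intranasal, and at 179.3, 134.3 and 119.6 CPM in TG drinking water. Only TG intranasal and TG drinking water did not overlap among the group pairs, and WT control 1 was the lowest of all 15 libraries.

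Synpo2, an actin-binding protein, went with Prkcd. It was at 2.78, 25.07 and 24.31 CPM in WT control, at 29.78, 16.4 and 13.08 CPM in WT intranasal, at 17.54, 18.67 and 13.98 CPM in TG control, at 11.28, 5.907 and 12.15 CPM in TG intranasal, and at 29.19, 28.48 and 22.38 CPM in TG drinking water. The libraries low in Prkcd were again low here: WT control 1 was the lowest and TG intranasal 2 the next. Over the 15 libraries, log2 CPM of Prkcd and Synpo2 correlated with Pearson's r = 0.93 and Spearman's rho = 0.93, each with a permutation p of 1e-05, the smallest that 100000 permutations can give. Adjusted by Benjamini-Hochberg over the 85 relations computed, these p-values were 0.000283 and 0.000425. Pearson's r was 0.84 without the 2 libraries farthest from the median of Prkcd and 0.93 after each group's mean was removed. The libraries share a tissue and 1 scaling, and the members were chosen with earlier results known, so these relations describe this set of libraries.

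The transcription factors ran with that pair to unlike degrees. With Prkcd, r was 0.85 for Tcf7l2, 0.76 for Lef1 and 0.66 for Rora. With Synpo2 it was 0.79, 0.84 and 0.80. The stronger relation of each is given in full. Tcf7l2 correlated with Prkcd at r = 0.85 (rho = 0.83, permutation p = 8e-05 and 0.00024, adjusted p = 0.00127 and 0.00408; r = 0.83 without the 2 farthest libraries). For Lef1 with Synpo2, r was 0.84 (rho = 0.81, permutation p = 5e-05 and 0.00053, adjusted p = 0.00106 and 0.00644) and 0.69 without the 2 farthest libraries. Rora with Synpo2 gave r = 0.80 and rho = 0.57 (permutation p = 0.00249 and 0.028, adjusted p = 0.0132 and 0.118), and r was 0.47 without the 2 farthest libraries, so that relation rested on those libraries. WT control 1 was the lowest of all libraries for Tcf7l2 (29.48 CPM), Rora (22.49 CPM), Prkcd and Synpo2, and the highest for Calb2 (114 CPM).

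Markers of another tissue varied with these genes. The mean of the 16 further thalamic genes correlated with Prkcd at r = 0.94 (rho = 0.95), and that of 6 choroid plexus markers at r = 0.83 (rho = 0.70), with permutation p = 1e-05 for both measures of the first and 0.0002 and 0.00487 for the second (adjusted p = 0.000283, 0.000425, 0.00212 and 0.0318). Without the 2 libraries farthest from the median of Prkcd these r were 0.87 and 0.58. The choroid plexus markers summed to 58.54 CPM in WT control 1, and to 221.4 CPM in TG intranasal 2, the library next lowest in Prkcd. They reached 1948 CPM in WT intranasal 1 and 2067 CPM in TG drinking water 1, the libraries highest in Prkcd. Astrocyte markers gave r = 0.81 with Rora and 0.74 with Nwd2, whose r with the further thalamic genes was 0.80 and 0.38. With Tcf7l2 and Prkcd the astrocyte markers gave only 0.17 and 0.24. Lef1 gave r = 0.68 with endothelial markers and 0.74 with the further thalamic genes. The relations with astrocyte and endothelial markers had no permutation test. The part of all these markers in the results below was not tested.

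Tac2 and Gpr151, listed for the habenula, followed Prkcd less closely over all libraries than Synpo2 and Tcf7l2 did. With the mean of the further habenular genes, Tac2 gave r = 0.04 and Gpr151 r = 0.51. With pituitary and hypothalamic hormone genes r was 0.66 for Tac2 and 0.49 for Gpr151, and with microglia markers 0.48 and 0.55. These relations were not tested by permutation. With Prkcd, Tac2 gave r = 0.51 over all libraries and 0.74 inside groups, and Gpr151 gave 0.55 and 0.56. With the further thalamic genes, Tac2 gave 0.39 over all libraries and 0.7 inside groups, and Gpr151 gave 0.49 and 0.45. Tac2 was at 5.896, 9.841 and 13.98 CPM in WT control, at 14.14, 4.207 and 3.357 CPM in WT intranasal, at 15.12, 3.497 and 7.89 CPM in TG control, at 3.972, 4.184 and 11.95 CPM in TG intranasal, and at 9.811, 3.699 and 2.936 CPM in TG drinking water. Every group overlapped every other one, and TG control 1 and WT intranasal 1 were the highest libraries. Gpr151 was highest in WT control 3 (4.811 CPM) and TG control 1 (4.777 CPM), and next in WT intranasal 1 (3.977 CPM). The pair correlated at r = 0.62 and rho = 0.49 (permutation p = 0.0153 and 0.0678, adjusted p = 0.059 and 0.16), with r = 0.76 inside groups but 0.46 without the 2 libraries farthest from the median of Tac2. Prkcd and Calb2 gave r = -0.11 and rho = 0.02 (permutation p = 0.711 and 0.956, adjusted p = 0.765 and 0.965), with r = -0.49 inside groups. With Slc17a6, Tac2 showed r = -0.29 (rho = -0.20, permutation p = 0.303 and 0.481, adjusted p = 0.468 and 0.649). Markers of midbrain GABA neurons and tectum, among them Gata3 and Pax7, ran opposite to Tac2 at r = -0.80 (rho = -0.71, permutation p = 0.00066 and 0.00445, adjusted p = 0.00561 and 0.0315; r = -0.85 without the 2 farthest libraries).

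**Figure D2:**
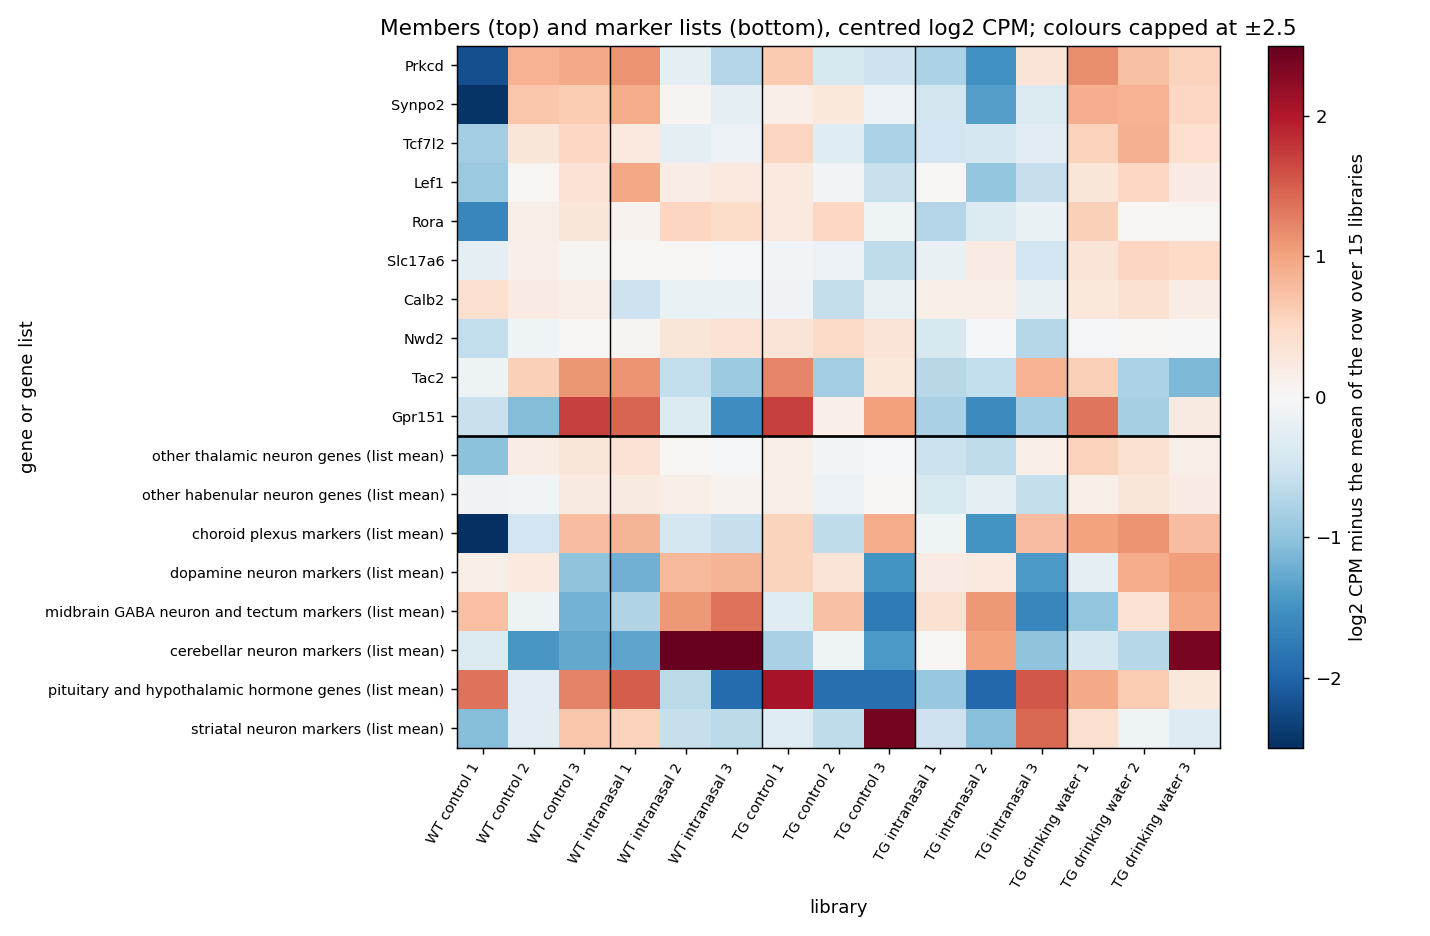
Log2 CPM of the 10 members and mean log2 CPM of the marker lists (rows) in the 15 libraries (columns), each centred on its own mean over libraries; colours are capped at 2.5 either way. Prkcd, Synpo2, Tcf7l2, Rora and the further thalamic genes are low together in WT control 1, while Calb2 is at its highest there (114 CPM).

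**Figure D3:**
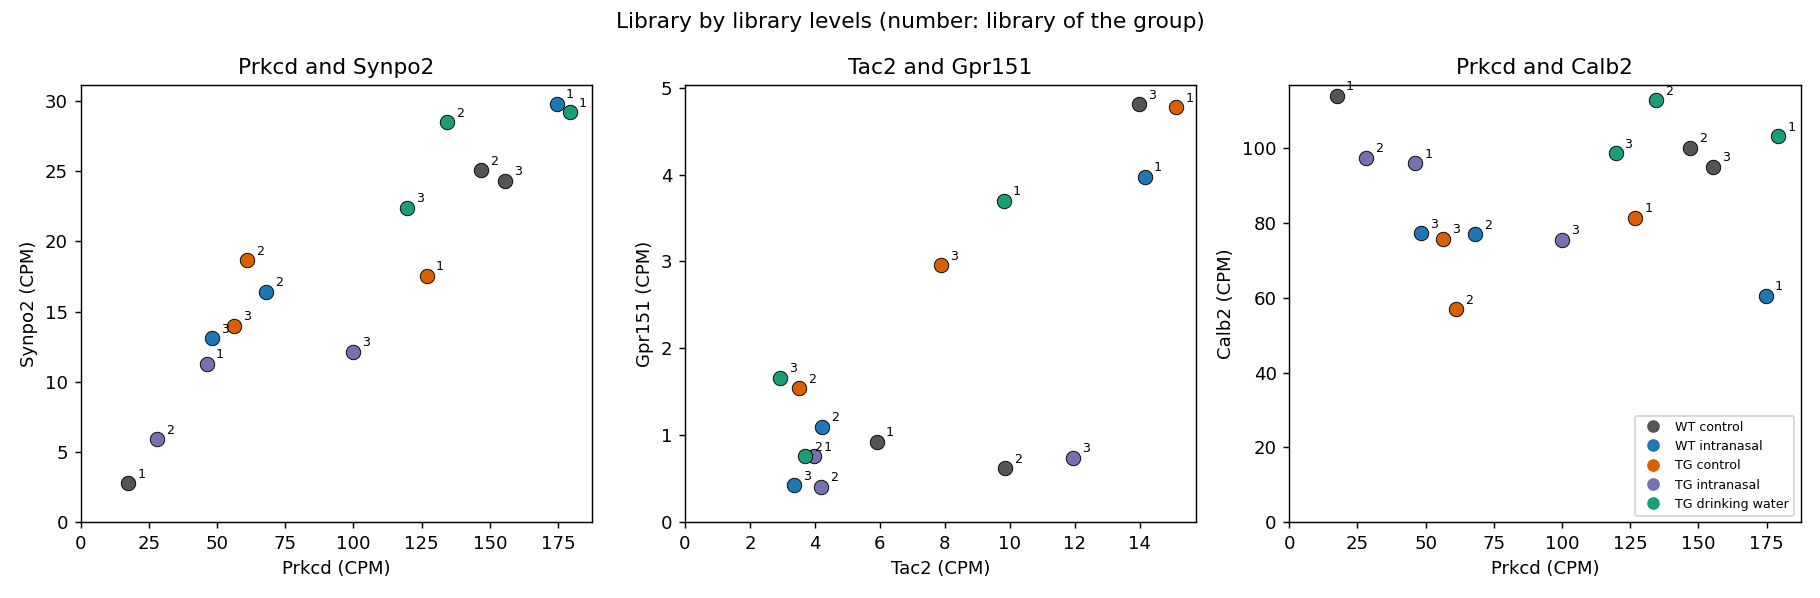
CPM of 3 gene pairs in the 15 libraries, each point numbered by library within its group colour. Prkcd and Synpo2 rise along a line (r = 0.93 on log2 CPM), Tac2 and Gpr151 spread more (r = 0.62), and Prkcd and Calb2 gave r = -0.11 over all libraries and -0.49 inside groups.

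Among the 15808 other genes, the profile nearest to that of Prkcd belonged to Rgs16, a regulator of G protein signalling, with a root mean square difference of 0.278 in centred log2 CPM over the 15 libraries. Calml4 and Fzd10 followed at 0.498 and 0.499, and the member Synpo2 itself stood at 0.367. Rgs16 was at 5.559 CPM in WT control 1, its lowest value, and at 44.59 CPM in TG drinking water 1, its highest. Nearest to Tcf7l2 were Ntng1 (0.274), Shox2 (0.277) and Epn3 (0.293). Ntng1 encodes netrin G1, a membrane protein of thalamic axons. For Tac2 the nearest genes were 1110017D15Rik, Morn5 and Cfap126, at 0.459 to 0.465, and for Gpr151 they were Igfbpl1, Enkur and Chrnb4, at 0.744 to 0.76. The member nearest to Tac2 was Tcf7l2, at 0.858 and rank 6191, with Gpr151 at 0.898 and rank 7959. Seen from Gpr151, Tac2 was at rank 35. Chrnb4, a nicotinic receptor subunit of the medial habenula, had 0.1271 to 2.21 CPM.

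The first comparison asks what the transgene changes without carnosine, and no member passed the test between TG control and WT control. Calretinin transcripts, Calb2, stood at 114, 100.1 and 95.06 CPM without the transgene (WT control) and at 81.35, 56.86 and 75.76 CPM with it (TG control). All 3 TG libraries were below all 3 WT libraries. Nwd2, which encodes a NACHT and WD repeat protein, had 12.72, 18.07 and 20.2 CPM in WT control against 24.53, 27.07 and 24.31 CPM in TG control, without overlap in the other direction. The log2 fold change was -0.53 (SE 0.16, adjusted p = 0.154) for Calb2 and 0.57 (SE 0.19, adjusted p = 0.175) for Nwd2 by the quasi-likelihood test of edgeR, adjusted by the Benjamini-Hochberg method over all genes tested; every adjusted p for a fold change below has this source unless DESeq2 is named. Genes called at an adjusted p under 0.05 made up 0.0126% of all genes, and 0 of the 10 members were called by edgeR or DESeq2. At an unadjusted p under 0.05 there were 2 members against 18.1% of all genes. Groups did not overlap for the same 2 members, against 16.4% of all genes.

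The other 8 members overlapped between TG control and WT control. Log2 fold changes ran from -0.39 (SE 0.62) for Prkcd to 0.53 (SE 0.81) for Gpr151. Of the 10, 3 were fitted higher, against 52% of all genes, with a median of -0.12 against 0.021 over all genes. Leaving out 1 library at a time turned the direction of Tcf7l2, Lef1, Tac2 and Synpo2 and kept that of Rora, Slc17a6, Gpr151 and Prkcd. Without WT control 1 the values were -0.894 for Prkcd, -0.562 for Synpo2 and 0.0126 for Rora. Calb2 and Nwd2 kept theirs: without both pituitary-rich libraries, WT control 1 and TG control 1, they were at -0.556 and 0.425 (adjusted p = 0.25 and 0.383). Pituitary hormone genes were fitted lower in TG control for 10 of 10, and striatal markers higher for 7 of 7. Of the 16 further thalamic genes 11 were fitted higher (median 0.134), and of 17 Wnt and TCF/LEF pathway genes 16 were (median 0.466). None was called; the smallest p-values belonged to Zic4 in the thalamic list, at 1.04 (SE 0.39, adjusted p = 0.201), Lrrc55 in the habenular list, at 0.86 (SE 0.25, adjusted p = 0.15) and Axin2, a Wnt feedback gene, in the pathway list, at 0.66 (adjusted p = 0.184).

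Intranasal carnosine was then compared with control in each genotype. In WT mice Calb2 was at 60.49, 76.91 and 77.26 CPM after carnosine, all under the WT control libraries, a log2 fold change of -0.53 (SE 0.16, adjusted p = 0.0832). Nwd2 was at 20.61, 24 and 25.05 CPM, all above WT control, at 0.45 (SE 0.19, adjusted p = 0.163). Genes called made up 1.01% of all genes and 0 of the 10 members; DESeq2 called 1 member, Calb2, at an adjusted p of 0.0245. At an unadjusted p under 0.05 there were 2 members against 24% of all genes, and the groups of 2 members did not overlap against 26.7% of all genes. Both comparisons share the WT control libraries, so the same 3 values of Calb2 and Nwd2 stand behind each. Without both pituitary-rich libraries, Calb2 was at -0.447 and Nwd2 at 0.279 (adjusted p = 0.286 and 0.52) in WT intranasal against WT control. Of the 10 members 5 were fitted higher, against 52.2% of all genes, with a median of -0.056 against 0.024.

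Lef1 (0.58, SE 0.33, adjusted p = 0.288) and Rora (0.54, SE 0.34, adjusted p = 0.347) were fitted higher and overlapped between WT intranasal and WT control. Without WT control 1 they were at 0.296 and 0.141. Prkcd, at -0.14, and Tac2, at -0.46, had 1 high library, WT intranasal 1, and 2 low ones. Those low ones are the libraries rich in cerebellar transcripts; cerebellar markers were fitted higher in WT intranasal for 6 of 6, with a median of 3.343. Left without them and TG drinking water 3, Prkcd was at 0.712 and Tac2 at 0.509, each resting on a single WT intranasal library. Kiss1, a peptide gene known from the zebrafish habenula, was at -2.48 (SE 0.86, adjusted p = 0.107) and Lrp5, a Wnt co-receptor, at 0.79 (adjusted p = 0.0917).

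In TG mice the members with lower fitted values after intranasal carnosine were the majority, 8 of 10 against 50.4% of all genes, with a median of -0.438 against -0.003. These groups lay partly along the split by the unnamed row. It took over 1% of counts in TG control 1 and TG control 2, and less in all TG intranasal libraries. With a term for that split Tcf7l2 was at 0.386, Lef1 at 0.12 and Prkcd at 0.0456, and the other members kept their direction. No member passed the test. Nwd2 was at 24.53, 27.07 and 24.31 CPM in TG control and at 14.68, 18.83 and 11.95 CPM in TG intranasal, a log2 fold change of -0.74 (SE 0.19, unadjusted p = 0.0011 from edgeR's quasi-likelihood fit across all genes, adjusted p = 0.51). Its groups were apart. Gpr151 was at 4.777, 1.539 and 2.959 CPM in TG control and at 0.7627, 0.4102 and 0.741 CPM in TG intranasal, a log2 fold change of -2.25 (SE 0.85, adjusted p = 0.51). Here too all 3 treated libraries were lower. Chrnb4, nearest in profile to Gpr151 among the further habenular genes, was at 2.21, 1.119 and 1.45 CPM in TG control. In TG intranasal it was at 0.1271, 0.2461 and 0.2964 CPM, a log2 fold change of -2.81 (SE 0.80, adjusted p = 0.51). It was picked for likeness to Gpr151 over these same libraries, so its fall is no separate support. Its low levels also carry a large counting error.

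Rora and Synpo2 completed the 4 members whose TG intranasal libraries all lay under TG control, against 5.86% of all genes in that direction and 11.8% in both. Rora, Synpo2 and Nwd2 are among the 10% of genes with the longest transcripts. The median log2 fold change of those longest genes was -0.33 in this comparison, so the share over all genes is an unlike background for them. Rora was at 82.71, 100.4 and 65.03 CPM in TG control and at 42.23, 55.17 and 62.48 CPM in TG intranasal (-0.63, SE 0.34, adjusted p = 0.527). Synpo2 had a log2 fold change of -0.77 (SE 0.50, adjusted p = 0.574). Genes called made up 0.00632% of all genes and 0 members by edgeR and by DESeq2, and 2 members had an unadjusted p under 0.05 against 9.74% of all genes. Further thalamic genes were fitted lower for 14 of 16 (median -0.277), with Rorb, a nuclear receptor related to Rora, at -0.94 (SE 0.27, adjusted p = 0.51). Choroid plexus markers were lower for 5 of 6 and striatal markers for 7 of 7. Without TG control 1, which was also rich in pituitary transcripts, together with WT control 1, Tcf7l2 turned to 0.121, Tac2 to 0.231 and Prkcd was at -0.0157, while Nwd2 stayed at -0.764 (adjusted p = 0.071).

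Carnosine in the drinking water was compared with the same TG control libraries. Here too the groups lay partly along the split. TG control 1 and TG control 2 had the unnamed row over 1% of counts, and all TG drinking water libraries had it below that. No member passed the test, and 7 of the 10 members were fitted higher, against 50.7% of all genes, with a median of 0.503 against 0.005. Slc17a6, which loads glutamate into synaptic vesicles, was at 74.86, 70.92 and 50.06 CPM in TG control and at 97.11, 112.8 and 110.8 CPM in TG drinking water. The groups were apart, with a log2 fold change of 0.71 (SE 0.18, adjusted p = 0.235). Calb2 went from 81.35, 56.86 and 75.76 CPM to 103.2, 112.7 and 98.57 CPM, also without overlap, a log2 fold change of 0.56 (SE 0.16, adjusted p = 0.256). Tcf7l2 was at 79.07, 44.13 and 31.44 CPM in TG control and at 81.06, 100 and 72.86 CPM in TG drinking water, a log2 fold change of 0.72 (SE 0.31, adjusted p = 0.565). TG control 1 overlapped the treated libraries.

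Synpo2 was likewise above TG control in all 3 drinking-water libraries (0.68, SE 0.50, adjusted p = 0.817), and Nwd2, at 19.14, 20.32 and 19.28 CPM, below it in all 3 (-0.37, SE 0.19, adjusted p = 0.663). So 3 members were higher without overlap, against 6.44% of all genes, and 4 were apart in either direction, against 14.7%. Genes called made up 0.00632% of all genes and 0 members; at an unadjusted p under 0.05 there were 3 members, Tcf7l2, Slc17a6 and Calb2, against 8.07% of all genes. DESeq2 called 2 members, Slc17a6 (0.717, adjusted p = 0.0124) and Calb2 (0.558, adjusted p = 0.0342). Without both pituitary-rich libraries edgeR called Tcf7l2 at 1.16 (SE 0.198, adjusted p = 0.0148) and gave Slc17a6 0.822 (adjusted p = 0.0571). Without TG control 3, the library high in striatal Adora2a, Slc17a6 was at 0.559 and Tcf7l2 at 0.464, with adjusted p = 0.945 and 0.989. Of the 16 further thalamic genes 12 were fitted higher and 4 lower (median 0.407). Those of smallest p were Lhx2, at -0.53 (adjusted p = 0.206), and Slitrk6, at 1.44 (adjusted p = 0.242). DESeq2 called Lhx2 lower (-0.53, adjusted p = 0.00475). So did edgeR without both pituitary-rich libraries (-0.617, adjusted p = 0.03). Dopamine neuron markers were fitted higher for 9 of 10 (median 0.896) and choroid plexus markers for 6 of 6 (median 0.516) in the same comparison. Mural cell markers were fitted higher for 6 of 6 (median 0.99) and cerebellar markers for 5 of 6 (median 2.205), while striatal markers were fitted lower for 7 of 7 (median -1.203) and astrocyte markers for 5 of 5 (median -0.337). None of these markers was called, and their part in the members' values was not tested. The mean of the dopamine neuron markers correlated with Slc17a6 over the 15 libraries at r = 0.60 (rho = 0.51, permutation p = 0.0176 and 0.0563, adjusted p = 0.0623 and 0.143), and r was 0.23 without the 2 farthest libraries, so that relation rested on them.

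No member passed the test between the 2 routes of carnosine, but most lay on the same side. Set against TG drinking water, 9 of the 10 members were fitted lower in TG intranasal, against 47.9% of all genes, with a median log2 fold change of -0.722 against 0.015. Tcf7l2 was at 38.58, 39.83 and 44.82 CPM in TG intranasal and at 81.06, 100 and 72.86 CPM in TG drinking water (-1.04, SE 0.32, adjusted p = 0.553). Lef1 was at 9.947, 4.923 and 6.462 CPM and at 12.02, 13.99 and 11.25 CPM (-0.80, SE 0.33, adjusted p = 0.655). In both of these the routes were apart. Slc17a6 at -0.58 (SE 0.18, adjusted p = 0.553) and Synpo2 at -1.44 (SE 0.50, adjusted p = 0.594) were apart as well. So were Prkcd (-1.31, SE 0.63), Rora (-0.64, SE 0.34), Calb2 (-0.23, SE 0.16) and Nwd2 (-0.37, SE 0.19).

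That makes 8 of 10 members with no overlap and TG intranasal the lower, against 9.14% of all genes in that direction and 16.8% in either. Tac2 and Gpr151 were the other two: Tac2 was fitted at 0.28 (SE 0.62) and Gpr151 at -1.66 (SE 0.84), with overlap. None passed the test: genes called by edgeR were 0% of all genes and 0 members, DESeq2 called 24 genes and 0 members, and 4 members had an unadjusted p under 0.05 against 7.26% of all genes. Several members vary together from library to library, so these 8 are not 8 separate observations. All 6 libraries compared had the unnamed row under 1% of counts. Without the cerebellum-rich libraries, TG drinking water 3 among them, Tcf7l2 was at -1.16 and Synpo2 at -1.57 (adjusted p = 0.929 and 0.945). Without TG drinking water 1, the library highest in Ttr, Tcf7l2 was at -1.07, Prkcd at -1.13 and Synpo2 at -1.37 (adjusted p = 0.705 each), and Rora at -0.431 (adjusted p = 0.76). Summed over the 10 members, TG intranasal was at 332.7, 345.1 and 381.8 CPM and TG drinking water at 640.4, 598.8 and 531.3 CPM. The other groups overlapped 1 or both of these: TG control was at 518.3, 393.5 and 334.3 CPM, WT intranasal at 541.2, 429.2 and 399.2 CPM, and WT control at 277.1, 540.2 and 572 CPM.

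Several other lists lay on the same side as the members between the routes. Further thalamic genes were fitted lower in TG intranasal for 15 of 16 (median -0.593) and further habenular genes for 9 of 12 (median -0.453). Dopamine neuron markers were fitted lower for 10 of 10 (median -0.608) and choroid plexus markers for 6 of 6 (median -0.825). None of them was called by edgeR. Striatal markers were fitted higher for 6 of 7 (median 0.387). Slitrk6, a membrane protein gene of the thalamic list, was at 3.21, 2.379 and 4.298 CPM in TG intranasal and at 12.43, 10.52 and 5.984 CPM in TG drinking water (-1.55, SE 0.37, adjusted p = 0.521). DESeq2 called Slitrk6, at -1.54 (adjusted p = 0.0487). Ntng1 was at 25.01, 17.35 and 36.55 CPM and at 56.5, 58.38 and 45.76 CPM (-1.02, SE 0.27, adjusted p = 0.553). Both were apart between the routes. Gbx2, an early thalamic transcription factor, overlapped, at 1.621, 1.313 and 7.114 CPM and at 10.9, 6.417 and 3.601 CPM.

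**Figure D4:**
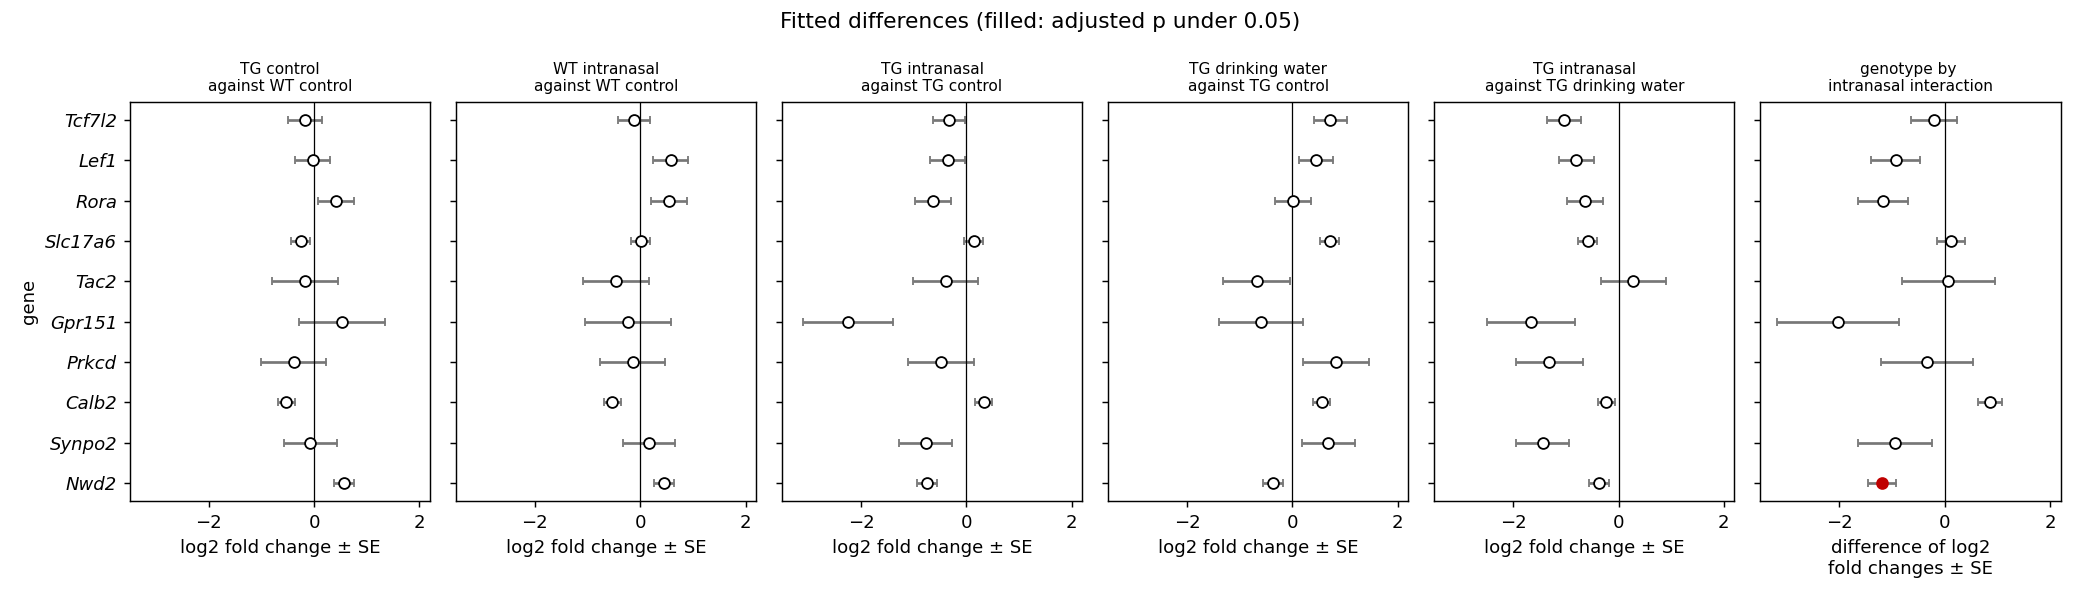
Log2 fold change of each member (horizontal axis, points) with its SE (bars) in the 6 comparisons, from the edgeR fit of all 15 libraries; a filled red point has an adjusted p under 0.05. Nwd2 in the genotype by intranasal interaction, at -1.19, is the 1 filled point, and in TG intranasal against TG drinking water 9 of the 10 points lie under 0.

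The interaction asks whether intranasal carnosine acted differently in the genotypes; it is the log2 fold change in TG minus that in WT. Nwd2 was the 1 member called, at -1.19 (SE 0.27, unadjusted p = 0.000358, adjusted p = 0.0487 from edgeR's quasi-likelihood test). It was 0.45 higher in WT and 0.74 lower in TG on the log2 scale, though neither of those changes passed the test alone. WT intranasal was at 23.22 ± 2.317 CPM against 17 ± 3.857 CPM in WT control, and TG intranasal at 15.15 ± 3.466 CPM against 25.3 ± 1.534 CPM in TG control (SD, n = 3). Genes called made up 2.32% of all genes, and genes called with a negative value 0.898%. Calb2 ran the other way, at 0.86 (SE 0.23, adjusted p = 0.0504). Rora was at -1.17 (SE 0.48, adjusted p = 0.122), and these 3 members had an unadjusted p under 0.05 against 28.6% of all genes. Of the 10 members 7 were fitted lower, against 52.6% of all genes, with a median of -0.639 against -0.045. Markers of other cells shifted in the same contrast. Cerebellar markers were fitted lower for 6 of 6 (median -2.228), striatal markers for 7 of 7 (median -0.752), choroid plexus markers for 5 of 6 (median -0.673) and astrocyte markers for 4 of 5 (median -1.121). Pituitary and hypothalamic hormone genes were fitted higher for 9 of 10 (median 1.438). Of 17 Wnt and TCF/LEF pathway genes 16 were fitted lower (median -1.023). None of these was called by edgeR. Of the Wnt list, Gsk3b (-1.29, SE 0.34) and Axin2 (-1.17, SE 0.32) came nearest, each at the adjusted p of 0.0504 that Calb2 had. Over 26 alternatives Gsk3b was called in 9 and Axin2 in 8. The part of all these lists in the values of Nwd2 and Calb2 was not tested.

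Nwd2 sat at the edge of the threshold. Its call was lost in 11 of the 15 fits that leave out 1 library. The call was kept without WT control 2, WT control 3, WT intranasal 1 or TG control 1. Over all 15 fits Nwd2 was at -1.37 to -1.02 with adjusted p from 0.0219 to 0.141. Without the cerebellum-rich libraries it was at -1.02 (adjusted p = 0.603), and without both pituitary-rich libraries at -1.04 (adjusted p = 0.0474). Calb2, just short of a call here, was called in 8 of 26 alternatives. DESeq2 put its adjusted p at 0.00812, and edgeR put it at 0.0224 with a replicate block, 0.0388 with no filter, 0.0452 with the 5 CPM filter and 0.0499 with RLE scaling. It was also called without WT control 2 (0.0364), WT intranasal 1 (0.0489) or TG control 1 (0.0228). Without WT control 1, its highest library, Calb2 was at 0.776 (adjusted p = 0.135). Among relatives of the members, Nwd1, a close relative of Nwd2, was lower in this contrast (-1.91, SE 0.43, adjusted p = 0.0487), so was Rorb (-1.53, SE 0.38, adjusted p = 0.0487) and Pvalb, which like Calb2 encodes a calcium-binding EF-hand protein, was higher (1.63, SE 0.39, adjusted p = 0.0487). Each of these 3 also lost its call in 11 of the 15 fits that leave out 1 library, with adjusted p up to 0.141. Pvalb was at 308.9, 128.1 and 148.7 CPM in the WT control group and at 102.2, 99.57 and 106.5 CPM in WT intranasal. In TG it was at 107.9, 82.39 and 117.8 CPM without and at 140.9, 160.5 and 200.3 CPM with intranasal carnosine. Both genotypes were apart, in opposite directions.

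Transcript length moved with the interaction across all genes. Over 15081 genes with a length, Spearman's rho between the interaction and the longest transcript was -0.595, a description across genes, which are not independent replicates. The median was 0.87 among the 10% of genes with the shortest transcripts and -0.84 among the 10% with the longest. Nwd2 (8534 bases), Synpo2 (9203 bases) and Rora (10878 bases) are among the longest 10% and had negative values, and Calb2 (1431 bases) is among the shortest 10% and had a positive one; Tac2 (852 bases), also among the shortest, was at 0.07. After the log2 values were corrected for length and GC content in each library, Nwd2 was at -0.43 (SE 0.218, adjusted p = 0.327), Calb2 at 0.218 (adjusted p = 0.671) and Rorb at -0.693 (adjusted p = 0.192). In the same correction Pvalb was at 0.586 (adjusted p = 0.261) and Nwd1 at -0.883 (adjusted p = 0.0976), and 1 gene in all was called in place of 367. The same correction put Calb2 at -0.154 and Nwd2 at 0.164 between TG control and WT control, and at -0.0768 and -0.0603 between WT intranasal and WT control (adjusted p from 0.735 to 0.908). The same relation with length ran at rho = 0.548 between TG control and WT control, 0.571 between WT intranasal and WT control, -0.462 between TG intranasal and TG control, -0.163 for drinking water and -0.358 between the routes.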

How the data were processed

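Midbrain RNA was sequenced from 15 mouse samples in 5 groups of 3. The authors deposited raw whole-number counts per gene, with no normalization; for the aligner, counter, genome build and strand setting the sources used here give nothing, so reads of overlapping genes cannot be told apart. Columns were matched to samples by the description in the labels. Numeric gene IDs were named from a RefSeq table (GRCm38.p6), which named 24374 of 24454 rows; the 80 unnamed rows were not named further. Library totals of 13202199 to 60542423 counts set the counting precision.

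The analysis ran in edgeR 4.0.16 under R 4.3.3: filterByExpr left 15818 genes, TMM scaled the libraries, and a quasi-likelihood model with 1 mean per group was fitted to all 15 libraries (6.54 prior degrees of freedom; common biological coefficient of variation, 0.244). A gene was called at a Benjamini-Hochberg adjusted p under 0.05 over all genes tested. CPM are TMM-scaled, with a prior count of 2 for log2 CPM. Lengths are those of the longest GENCODE transcript of each gene ID. Correlations used 100000 permutations, two-sided. Alternatives were DESeq2 1.42.0, RLE and upper-quartile scaling, no filter, a filter of 5 CPM, the compared groups alone, a replicate block, a term for the library split, leaving out libraries, and, chosen after seeing the data, a length and GC correction and leaving out 3 cerebellum-rich libraries. Named were all 10 members, the called genes of 4 lists, and the 3 nearest profiles of Tcf7l2, Prkcd, Tac2 and Gpr151. Where a list had no called gene, only some of its 2 genes of smallest p in a comparison were named, picked after their values were seen. Further genes of the marker lists, such as Ttr, Gh, Gabra6, Adora2a and Gbx2, were also named after their values were seen. Members and lists were chosen with earlier results of these data known. In simulated data made after TG control and WT control (15690 genes), the procedure recovered 53 of 100 genes changed 2-fold and 87 of 100 changed 4-fold, with 5 false calls among 145.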

Additional observations from a re-analysis of the deposited data

Results flagged for a closer look

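The interaction test of edgeR, for a different effect of intranasal carnosine in TG and WT mice, called 367 of 15818 genes, or 2.32%. One of them was Itpr2, a premyelinating oligodendrocyte marker, at -1.66 (adjusted p = 0.0487). Among the members and the 4 lists of related genes, 4 were called, at an adjusted p of 0.0487 each. These 4 were Nwd2 at -1.19, Rorb at -1.53, Pvalb at 1.63 and Nwd1 at -1.91 on the log2 scale. Each lost its call in 11 of the 15 fits that leave out 1 library, with the compared groups alone (adjusted p = 0.0772), with the term for the library split (0.296 to 0.313), without the cerebellum-rich libraries (0.603) and after the length and GC correction (0.0976 to 0.327). Rorb also lost it without both pituitary-rich libraries (0.0512). DESeq2 called all 4.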

How the results depend on the processing

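Over the alternatives tried, the members' fold changes kept their direction and their side of the threshold in 1447 of the fits, reversed in 73, gained a call in 13 and lost one in 15, the last all for Nwd2 in the interaction. Between the routes, 9 or 10 of 10 members were fitted lower in TG intranasal in every alternative, or 8 of 9 with the 5 CPM filter. Whether replicate numbers pair the samples was left unsettled. Of 30 pairs of libraries with the same number, 12 had a correlation over 0.1 (-0.202 to 0.242, median 0.037). No baseline of pairs with unlike numbers was computed, so these values cannot decide it.

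Counts of genes called moved most, from 2, 159, 367, 1, 1 and 0 in the order below. With a replicate block they were 531 between TG control and WT control, 1587 for WT intranasal, 2598 for the interaction, 2 for drinking water, 0 for TG intranasal and 0 between the routes, with 2 members called in the interaction. DESeq2 called 421, 1423, 2396, 196, 14 and 24 genes in that order, with 1 member for WT intranasal, 2 for drinking water and 2 for the interaction. The compared groups alone gave 1, 2, 0, 1, 0 and 1 genes. RLE scaling gave 706, no filter 1276 and the 5 CPM filter 1253 interaction genes, each with 2 members. No filter gave 534 for WT intranasal, 6 for drinking water and 5 for TG intranasal, and upper-quartile scaling 0 for WT intranasal. The term for the library split gave 43 for drinking water and 0 for WT intranasal and the interaction. Leaving out both pituitary-rich libraries gave 188 for drinking water (1 member), 91 for TG intranasal, 0 for WT intranasal and 669 for the interaction. Leaving out the cerebellum-rich libraries gave 0 in every comparison but TG control against WT control, which kept 2. The length and GC correction gave 3 between the controls, 34 for WT intranasal and 1 for the interaction, with 0 members called there.

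Reversed log2 values, in the same comparisons, were these, and the cause was not tested. With the split term Tcf7l2 was at 0.085, Lef1 at 0.165 and Synpo2 at 0.0481 between the controls, Tcf7l2 at 0.386, Lef1 at 0.12 and Prkcd at 0.0456 for TG intranasal, and Tcf7l2 at 0.511 and Prkcd at 0.186 in the interaction. Without the pituitary-rich libraries Gpr151 was at -0.262 between the controls, Slc17a6 at -0.0876 and Synpo2 at -0.323 for WT intranasal, Tcf7l2 at 0.121 and Tac2 at 0.231 for TG intranasal, and Tcf7l2 at 0.56 and Prkcd at 0.626 in the interaction. After the length and GC correction Rora was at -0.0328, Tac2 at 0.251 and Rorb at -0.102 between the controls, Slc17a6 at -0.0975, Tac2 at 0.0482, Synpo2 at -0.203 and Nwd2 at -0.0603 for WT intranasal, and Tac2 at -0.75 in the interaction. Slc17a6 for WT intranasal was at -0.00557 under RLE and -0.00525 by DESeq2. Without the cerebellum-rich libraries Tcf7l2 was at 0.143, Tac2 at 0.509, Gpr151 at 0.898 and Prkcd at 0.712 for WT intranasal, and Tac2 at -0.024 between the routes and -0.909 in the interaction.

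Leaving out 1 library at a time gave these ranges. Between the controls Lef1 ran from -0.313 to 0.26, Synpo2 from -0.562 to 0.287, Tcf7l2 from -0.621 to 0.0974, Tac2 from -0.795 to 0.207 and Rorb from -0.00758 to 0.621. For WT intranasal 0 to 1293 genes and 0 to 1 members were called, with Slc17a6 from -0.088 to 0.0858, Synpo2 from -0.323 to 0.526, Prkcd from -0.877 to 0.232, Tcf7l2 from -0.439 to 0.145 and Gpr151 from -1.44 to 1.25. For TG intranasal 0 to 8 genes were called, with Tcf7l2 from -0.578 to 0.121, Tac2 from -1.11 to 0.231 and Slc17a6 from -0.0638 to 0.289. For drinking water 0 to 8 genes were called and Rora ran from -0.203 to 0.171. Tac2 between the routes ran from -0.437 to 1.01. In the interaction 0 to 2389 genes and 0 to 2 members were called, with Tcf7l2 from -0.472 to 0.246, Prkcd from -0.99 to 0.392, Tac2 from -0.649 to 0.994 and Slc17a6 from -0.0778 to 0.275.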
